A study of Homo sapiens with 4 samples.

Results

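The genes described are the clustered histone genes, taken as every symbol in the count tables that starts with HIST1H, HIST2H, HIST3H or HIST4H. There were 73 of them among 26364 symbols: 6 for histone H1, 18 for H2A, 20 for H2B, 14 for H3 and 15 for H4. All RNA came from NCI-H460, a cell line of human large cell lung carcinoma. Cells were exposed to gamma rays at 4 Gy, or to 0 Gy, and grown for a further 48 h with 2 uM DZNep (3-deazaneplanocin A, an inhibitor of S-adenosylhomocysteine hydrolase) or with DMSO, its solvent. The groups were DZNep 4 Gy, DZNep 0 Gy, DMSO 4 Gy and DMSO 0 Gy. Each was 1 library, so no group has a replicate, and all come from the same line.

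Histones package DNA. H2A, H2B, H3 and H4 form the core of the nucleosome, and H1 binds the linker between nucleosomes. Most copies are encoded in gene clusters that are transcribed in S phase. Their messenger RNAs are unusual in ending at a short stem-loop instead of a poly(A) tail, and the stem-loop is bound by SLBP, which is needed for their processing and translation. Some clustered genes can also give longer transcripts that run past the stem-loop to a poly(A) site, and such forms are known from cells that leave the cycle or differentiate. The kit used here selects RNA by its poly(A) tail, so the counts below are of polyadenylated histone RNA and are no measure of total histone messenger RNA.

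The stem-loop is shown first for 7 tested members in whose annotated transcripts it was found, because it marks the usual end of a histone messenger. HIST1H2BK, HIST2H3D and HIST1H1C, described below, had no match and are not among them. The letters were read from GENCODE 29 transcripts, with the 16-base stem-loop in capitals between 5 flanking bases on each side, written as DNA.
HIST2H2BF: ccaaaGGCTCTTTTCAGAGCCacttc
HIST2H2BE: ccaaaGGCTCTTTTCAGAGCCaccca
HIST2H3A: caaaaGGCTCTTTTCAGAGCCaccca
HIST2H2AA3: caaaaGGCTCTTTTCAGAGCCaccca
HIST3H2A: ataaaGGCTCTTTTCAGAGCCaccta
HIST1H4I: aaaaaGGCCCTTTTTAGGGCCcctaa
HIST2H4A: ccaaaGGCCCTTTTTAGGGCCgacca
The H2A, H2B and H3 genes shown share 1 stem-loop sequence, and both H4 genes carry another. That sharing holds for the genes shown only. The tested H2B members HIST1H2BD and HIST2H2BC, not shown, each had a match with a different sequence. The conserved 16-base histone stem-loop pattern, with its variable bases left free, was searched on the transcript strand. It was found in 46 of 104 transcripts of the members and in 128 of all 206694 transcripts (0.0619%).

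The annotated transcripts differ in how far they run past that point. The model of HIST2H2BE runs on for 1729 bases, that of HIST2H2BF for 1479, that of HIST2H3A for 1154 and that of HIST3H2A for 390, and each has AATAAA or ATTAAA in its last 40 bases. The models of HIST2H2AA3 and its copy HIST2H2AA4 end 35 bases past the stem-loop. Of the 73 members, 23 had a model that runs at least 100 bases past the stem-loop and 9 had one that ends nearer to it. Another 2 had a poly(A) signal alone, and 39 had neither. For 35 of these 39 every model has a length that is a multiple of 3, as a model of the coding sequence alone would have. Such a length is no proof of that, since some models with the stem-loop, such as that of HIST2H3A, have it too. A missing match is therefore no evidence that the transcript lacks the stem-loop. HIST1H2BK, HIST1H1C and HIST2H3D are among the 35. The 100-base limit was chosen after these models were seen.

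Clustered histone genes took a very small part of each library. Library totals were 112461380 to 136594350 counts. The members held 10556 counts in DZNep 4 Gy and 13140 counts in DZNep 0 Gy, against 9583 counts in DMSO 4 Gy and 8655 counts in DMSO 0 Gy, or, with the libraries in that order, 0.00908%, 0.0102%, 0.00852% and 0.00634% of the counts. Of the 73 members, 46 had counts in all 4 libraries, 20 had 0 in some and 7 had 0 in all. A count of 0 allows up to 3 counts, which is 0.0217 to 0.0267 CPM (the count scaled to library size, here with TMM, edgeR's trimmed-mean factors). Of the markers checked, the epithelial keratins KRT8 and KRT18 lay at 1795 to 2070 CPM in the DZNep libraries and 633 to 862 CPM in the DMSO libraries. KRT19 lay at 146 to 247 CPM and VIM at 755 to 976 CPM, whereas EPCAM and CDH1 stayed at or under 0.491 CPM. The blood markers PTPRC, CD3E and LYZ stayed at or under 0.392 CPM, PECAM1 and VWF at or under 0.379, SFTPC at or under 0.0527, and the fibroblast genes COL1A1 and COL3A1 at 3.96 to 18.8 CPM. The part of these markers in the histone results was not tested.

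Only 15 members reached 1 CPM in at least 2 libraries and were tested: HIST1H1C of the H1 genes, 3 H2A genes, 5 H2B genes, 3 H3 genes and 3 H4 genes. By cluster, these were 4 of 56 HIST1H genes, 10 of 13 HIST2H genes, 1 of 3 HIST3H genes and 0 of 1 HIST4H gene. HIST2H2AA3 and HIST2H2AA4, HIST2H3A and HIST2H3C, and HIST2H4A and HIST2H4B had identical counts in every library. The same reads were thus counted for both copies of each pair, and the 15 symbols hold 12 separate measurements. Of the 15, 9 were at 1 CPM or more in all 4 libraries. HIST1H2BD, HIST2H3A and HIST2H3C passed through the 4 Gy libraries, HIST2H3D failed in DMSO 0 Gy and HIST2H4A and HIST2H4B failed in DZNep 0 Gy. For these 6 the filter itself bears on the ratios, so counts over the tested members are given as a description.

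**Figure D1:**
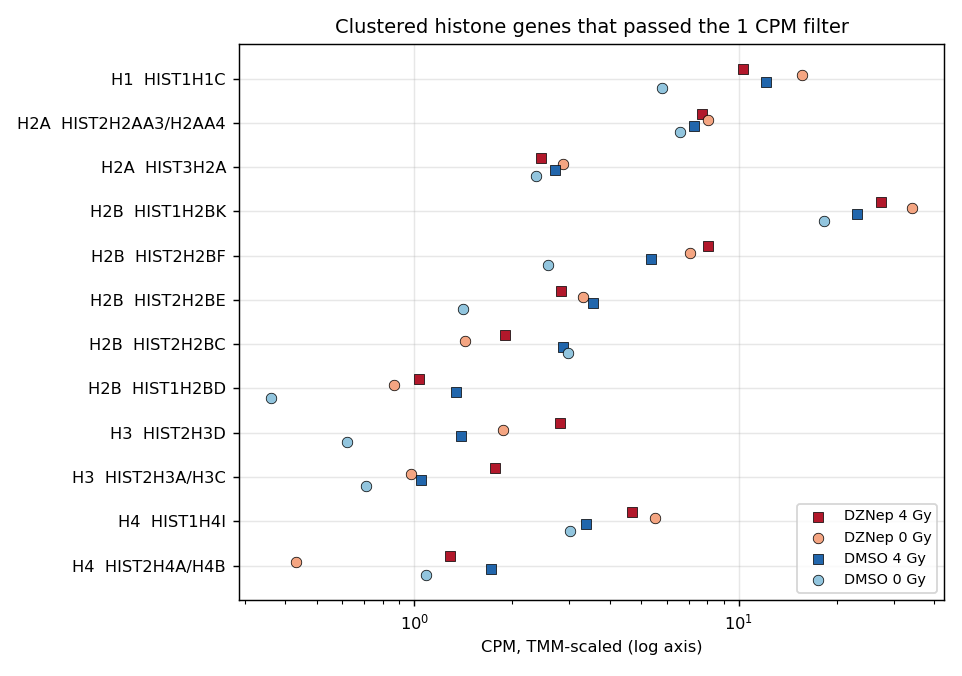
CPM (TMM-scaled, log axis) of the 12 separate measurements among tested clustered histone genes, grouped by histone type; each point is 1 library, squares are 4 Gy and circles are 0 Gy, red shades are DZNep and blue shades are DMSO. The lowest library was DMSO 0 Gy for HIST1H1C, HIST2H2BE and HIST2H2BF, among others, and DZNep 0 Gy for HIST2H2BC and HIST2H4A/HIST2H4B. For HIST3H2A the libraries lay close, with 2.37 CPM in DMSO 0 Gy and 2.45 CPM in DZNep 4 Gy.

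With DZNep, 3 of the 15 tested members rose and 0 fell: the H2B genes HIST1H2BK and HIST2H2BF and the H3 gene HIST2H3D. The test was edgeR's quasi-likelihood test over all 4 libraries with dose in the model, with Benjamini-Hochberg adjustment over all 13378 genes tested, of which 10.8% were called higher and 12.3% lower. At an unadjusted p under 0.05 there were 4 higher and 3 lower members in edgeR (16.7% and 19.3% of all tested genes), and 4 and 1 in DESeq2. Those 3 lower in edgeR were HIST2H2BC and the pair HIST2H4A and HIST2H4B, counted from the same reads. That pair was under 1 CPM in DZNep 0 Gy, so the filter bears on this count. DESeq2 also called 3 higher and 0 lower after adjustment. No group has a replicate, so the scatter behind such p-values is the departure of the 4 libraries from additive drug and dose effects. It is moderated by that of the other genes tested. A drug effect that differs between doses is counted as scatter, and the scatter may also be technical. With no label that names separate cultures, such p-values do not measure the spread between cultures.

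HIST2H3D, which encodes a replication-type H3, had 2.81 CPM in DZNep 4 Gy and 1.88 CPM in DZNep 0 Gy, against 1.40 CPM in DMSO 4 Gy and 0.621 CPM in DMSO 0 Gy. Both DZNep libraries lay above both DMSO libraries, as they did for 6 of the 15 tested members and 26.3% of all tested genes. The log2 fold change was 1.29 (SE 0.33, adjusted p = 0.0147, edgeR). HIST2H2BF, an H2B gene with a long annotated transcript, stood at 8.03 and 7.08 CPM in DZNep 4 Gy and 0 Gy, against 5.37 and 2.59 CPM in DMSO 4 Gy and 0 Gy. Here too both DZNep libraries were the higher ones. Its log2 fold change was 1.01 (SE 0.26, adjusted p = 0.0156, edgeR). In RefSeq its span overlaps FCGR1A, an Fc receptor gene, so reads of that gene could be among its counts. HIST1H2BK, the H2B gene with the most counts of all members, stood at 27.3 and 34.2 CPM in DZNep 4 Gy and 0 Gy, against 23.1 and 18.3 CPM in DMSO 4 Gy and 0 Gy. The libraries again did not overlap by drug, and the log2 fold change was 0.58 (SE 0.19, adjusted p = 0.047, edgeR). That last call was lost without the filter on low counts (adjusted p = 0.0857, edgeR). All 3 were lost when dose was left out of the model (adjusted p = 0.163 to 0.183, edgeR). In RefSeq the span of HIST1H2BK overlaps that of HIST1H4I, so HIST1H4I reads could be among the HIST1H2BK counts.

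Other tested members did not pass. HIST1H4I, an H4 gene, had 4.68 and 5.52 CPM in DZNep 4 Gy and 0 Gy, against 3.39 and 3.03 CPM in DMSO 4 Gy and 0 Gy (log2 fold change 0.67, SE 0.26, adjusted p = 0.085, edgeR). In RefSeq the span of HIST1H4I lies inside that of HIST1H2BK, and whether strand was used in counting is not given in the sources used here, so reads of the longer gene could be among its counts. HIST2H3A and HIST2H3C, a pair of H3 genes counted from the same reads, had 1.77 and 0.973 CPM in DZNep 4 Gy and 0 Gy, against 1.05 and 0.708 CPM in DMSO 4 Gy and 0 Gy (0.61, SE 0.34, adjusted p = 0.221, edgeR). HIST2H2BC, annotated as a transcribed pseudogene of H2B, went the other way, with 1.91 and 1.43 CPM in DZNep 4 Gy and 0 Gy, against 2.87 and 2.98 CPM in DMSO 4 Gy and 0 Gy (-0.83, SE 0.31, adjusted p = 0.0711, edgeR). It was the only tested member with both DZNep libraries below both DMSO libraries (27.8% of all tested genes). The H4 pair HIST2H4A and HIST2H4B had 1.29 and 0.433 CPM in DZNep 4 Gy and 0 Gy, against 1.73 and 1.08 CPM in DMSO 4 Gy and 0 Gy (-0.85, SE 0.36, adjusted p = 0.113, edgeR). In RefSeq the long span of HIST2H4B holds HIST2H2BC, HIST2H2AA4 and HIST2H3A, so the counts of these neighbours are uncertain.

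**Figure D2:**
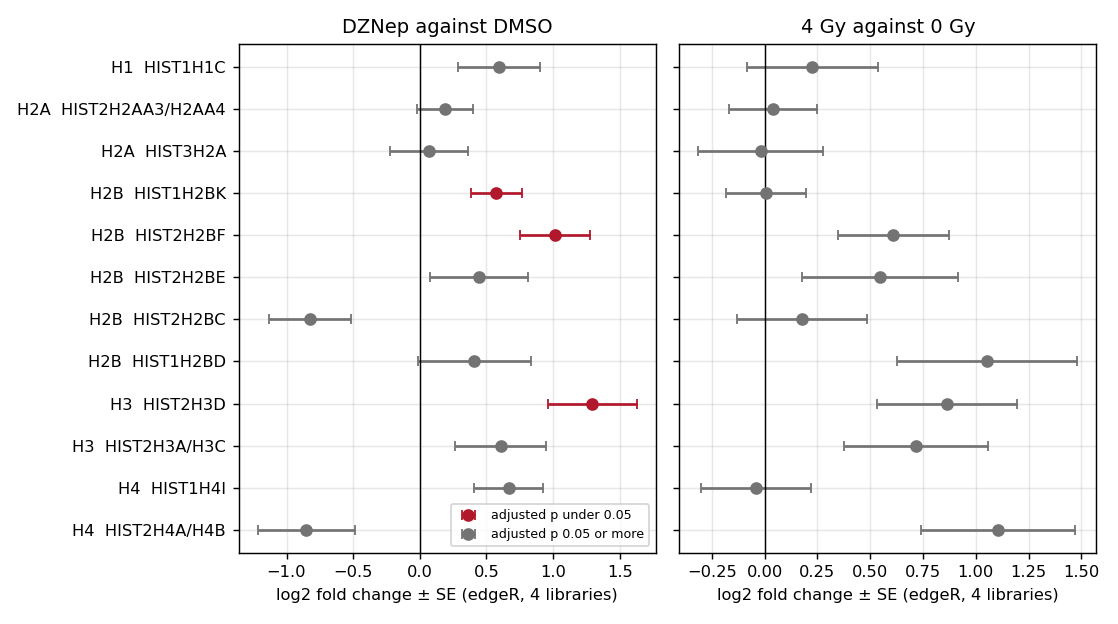
Log2 fold change with its standard error for the 12 separate measurements, for DZNep against DMSO (left) and for 4 Gy against 0 Gy (right), from the additive edgeR model over 4 libraries; positive means higher with DZNep or at 4 Gy. The 3 red points (adjusted p under 0.05) are HIST1H2BK, HIST2H2BF and HIST2H3D with DZNep, and the radiation panel has none.

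None of the 3 tested H2A genes passed. HIST2H2AA3 and HIST2H2AA4, counted from the same reads, had 7.70 and 8.03 CPM in DZNep 4 Gy and 0 Gy, against 7.26 and 6.57 CPM in DMSO 4 Gy and 0 Gy (log2 fold change 0.19, SE 0.21, adjusted p = 0.551, edgeR). HIST3H2A, the H2A gene of the small cluster on chromosome 1, had 2.45 and 2.88 CPM in DZNep 4 Gy and 0 Gy, against 2.71 and 2.37 CPM in DMSO 4 Gy and 0 Gy (0.07, SE 0.30, adjusted p = 0.889, edgeR). The libraries of HIST3H2A overlapped between drug and solvent.

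After radiation, 0 of the 15 tested members passed the test in either direction, against 2.17% of all tested genes higher and 0.897% lower. At an unadjusted p under 0.05, 5 were higher and 0 lower in edgeR (11.4% and 9.13% of all tested genes), and 3 and 0 in DESeq2. Those 5 were HIST1H2BD, HIST2H2BF, HIST2H3D and the pair HIST2H4A and HIST2H4B, counted from the same reads. HIST1H2BD passed the filter only through the 4 Gy libraries. HIST2H3D was under 1 CPM in DMSO 0 Gy and the H4 pair in DZNep 0 Gy. The filter thus bears on this count, which is a description only. In DESeq2 0 of 10 members passed after adjustment, and the other 5, HIST1H2BD, HIST2H3A, HIST2H3C, HIST2H4A and HIST2H4B, were given no adjusted p. HIST2H4A and HIST2H4B had 1.29 CPM in DZNep 4 Gy against 0.433 in DZNep 0 Gy, and 1.73 in DMSO 4 Gy against 1.08 in DMSO 0 Gy (log2 fold change 1.11, SE 0.37, adjusted p = 0.113, edgeR). Both 4 Gy libraries lay above both 0 Gy libraries, as for 15.8% of all tested genes. HIST1H2BD, an H2B gene, had 1.04 CPM in DZNep 4 Gy against 0.865 in DZNep 0 Gy, and 1.34 in DMSO 4 Gy against 0.361 in DMSO 0 Gy (1.05, SE 0.43, adjusted p = 0.183, edgeR). In RefSeq its span overlaps an antisense gene, whose reads could be among its counts. HIST2H2BF had a radiation log2 fold change of 0.61 (SE 0.26, adjusted p = 0.208) and HIST2H3D one of 0.86 (SE 0.33, adjusted p = 0.159), both by edgeR. For HIST1H2BK it was 0.01 (SE 0.19, adjusted p = 0.99, edgeR).

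The pairs of libraries show where these differences lay. For 2 libraries there is no test; ratios are of TMM-scaled counts, and their 95% intervals (exact conditional binomial) cover counting error only. DZNep against DMSO at 0 Gy gave 5 of 15 tested members at least 2-fold higher (5.48% of all tested genes): HIST1H1C, HIST1H2BD, HIST2H2BE, HIST2H2BF and HIST2H3D. The same pair gave 3 at least 2-fold lower (5.87%): HIST2H2BC and the pair HIST2H4A and HIST2H4B. At 4 Gy only HIST2H3D was at least 2-fold higher (4.71%) and 0 were lower (6.4%). Radiation in DMSO gave 5 members at least 2-fold higher (3.6%), the same 5 symbols as DZNep at 0 Gy, and 0 lower (1.55%). Both of these comparisons use the DMSO 0 Gy library, so they are not independent. HIST1H2BD and HIST2H3D were under 1 CPM in that library, so the filter bears on their ratios. Radiation in DZNep gave 2 higher (1.82%), HIST2H4A and HIST2H4B, and 0 lower (1.1%). These 2 symbols were counted from the same reads and were under 1 CPM in DZNep 0 Gy. The filter thus bears on their ratios here and for DZNep against DMSO at 0 Gy.

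HIST1H1C, the only H1 gene tested, encodes a widely expressed linker histone. It had 10.3 CPM in DZNep 4 Gy and 15.7 in DZNep 0 Gy, against 12.2 in DMSO 4 Gy and 5.81 in DMSO 0 Gy, so DMSO 0 Gy was the low library and the other three were higher. The log2 ratio of DZNep to DMSO was 1.43 at 0 Gy (interval 1.31 to 1.55) and -0.24 at 4 Gy (interval -0.35 to -0.12). The log2 ratio of 4 Gy to 0 Gy was 1.07 in DMSO (interval 0.94 to 1.19) and -0.602 in DZNep (interval -0.71 to -0.498). In the additive model, which takes such a difference as spread, its DZNep effect was 0.59 (SE 0.31, adjusted p = 0.189, edgeR; 0.0281 with a 10 CPM filter) and its radiation effect 0.23 (SE 0.31, adjusted p = 0.724, edgeR).

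HIST2H2BE, the H2B gene with the longest stretch past the stem-loop among those printed, had 2.84 CPM in DZNep 4 Gy and 3.31 CPM in DZNep 0 Gy, against 3.55 CPM in DMSO 4 Gy and 1.42 CPM in DMSO 0 Gy. Again DMSO 0 Gy was the low library, and neither effect passed the additive test (DZNep 0.44, SE 0.37, adjusted p = 0.416; radiation 0.55, SE 0.37, adjusted p = 0.436, edgeR). Its ratio of DZNep to DMSO was 1.22 at 0 Gy (interval 0.98 to 1.47) and -0.32 at 4 Gy (interval -0.54 to -0.11), on the log2 scale. For HIST2H2BF the same ratios were 1.45 (interval 1.27 to 1.63) and 0.58 (interval 0.43 to 0.73). For HIST2H3D they were 1.59 (interval 1.24 to 1.97) and 1.01 (interval 0.73 to 1.29), and for HIST1H2BK 0.907 (interval 0.84 to 0.98) and 0.24 (interval 0.17 to 0.32). These 3 genes thus stood higher with DZNep at both doses, and by less at 4 Gy. Whether that difference between doses exceeds the spread between cultures could not be tested.

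Radiation ratios had opposite signs in DZNep and DMSO for 8 of the 15 tested members (34.3% of all tested genes). For 7 of these 8 the ratio was below 0 in DZNep and above 0 in DMSO (15.7%). The 7 include HIST2H2AA3 and HIST2H2AA4, counted from the same reads, and some of the signs lie within counting error. In DZNep the ratio of HIST2H2AA3 was -0.06 (interval -0.19 to 0.07). In DMSO that of HIST3H2A was 0.20 (interval -0.03 to 0.43) and that of HIST1H4I 0.16 (interval -0.04 to 0.37). Both intervals left out 0 for HIST1H1C, HIST1H2BK and HIST2H2BE only. The difference of the radiation ratios, DZNep minus DMSO, was at least 2-fold below 0 for 3 members, HIST1H1C, HIST1H2BD and HIST2H2BE (3.22% of all tested genes), and at least 2-fold above 0 for 0 (1.97%). The median of this difference was -0.40 over the tested members and 0.00383 over all tested genes. Extremes among tested members, as log2 ratios with a prior count of 2, were HIST2H3D and HIST2H4A for DZNep at 0 Gy (1.57 and -1.29). For DZNep at 4 Gy they were HIST2H3D and HIST2H2BC (1.001 and -0.59). For radiation they were HIST1H2BD and HIST2H2BC in DMSO (1.85 and -0.05), and HIST2H4A and HIST1H1C in DZNep (1.54 and -0.601). HIST1H2BD passed the filter only through the 4 Gy libraries. HIST2H3D was under 1 CPM in DMSO 0 Gy and HIST2H4A in DZNep 0 Gy. The filter thus bears on these extremes and on the difference for HIST1H2BD.

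Summed over all 73 members with identical pairs counted once, clustered histone RNA stood at 82.0 and 92.1 CPM in DZNep 4 Gy and 0 Gy, against 75.3 and 54.2 CPM in DMSO 4 Gy and 0 Gy. The log2 ratio of DZNep to DMSO was 0.77 at 0 Gy (interval 0.72 to 0.81) and 0.12 at 4 Gy (interval 0.08 to 0.17). That of 4 Gy to 0 Gy was 0.47 in DMSO (interval 0.43 to 0.52) and -0.17 in DZNep (interval -0.21 to -0.13). The last sign did not hold for every cluster. For radiation in DZNep the HIST1H genes gave -0.32 (interval -0.37 to -0.27) and the HIST3H genes -0.21 (interval -0.43 to 0.002). The HIST2H genes gave 0.18 (interval 0.11 to 0.26). HIST1H2BK and HIST1H1C alone held 34.2 and 15.7 of the 92.1 CPM in DZNep 0 Gy, so the sum leans on them.

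The types differed in their sums, which from here count both genes of an identical pair unless stated. H1 counts were almost all HIST1H1C, which held 96.5% and 96.2% of them in DZNep 4 Gy and 0 Gy, against 97.4% and 87.1% in DMSO 4 Gy and 0 Gy. The remaining H1 genes together had 42 counts in DZNep 4 Gy and 79 in DZNep 0 Gy, against 37 in DMSO 4 Gy and 119 in DMSO 0 Gy, the opposite order at 0 Gy. Most of these were HIST1H1E, with 37 and 44 counts in DZNep 4 Gy and 0 Gy, against 23 and 99 counts in DMSO 4 Gy and 0 Gy. HIST1H1B, the next, had 0 and 15 counts in DZNep 4 Gy and 0 Gy, against 10 and 16 counts in DMSO 4 Gy and 0 Gy.

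H2A sums were 21.2 and 22.0 CPM in DZNep 4 Gy and 0 Gy, against 19.9 and 18.4 CPM in DMSO 4 Gy and 0 Gy. With the pair HIST2H2AA3 and HIST2H2AA4 counted once they were 13.5 and 14.0 CPM in DZNep 4 Gy and 0 Gy, against 12.7 and 11.8 CPM in DMSO 4 Gy and 0 Gy. The log2 ratios of the full H2A sums ran from -0.06 for radiation in DZNep to 0.26 for DZNep at 0 Gy. H2B sums were 44.4 and 49.98 CPM in DZNep 4 Gy and 0 Gy, against 39.6 and 28.1 CPM in DMSO 4 Gy and 0 Gy. HIST1H2BK held 58.4% to 68.5% of the H2B counts. The H2B ratio was 0.83 for DZNep at 0 Gy (interval 0.78 to 0.89), 0.17 for DZNep at 4 Gy (interval 0.11 to 0.23), 0.496 for radiation in DMSO (interval 0.43 to 0.56) and -0.17 for radiation in DZNep (interval -0.22 to -0.12).

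H3 sums were 8.11 CPM in DZNep 4 Gy and 5.30 CPM in DZNep 0 Gy, against 5.22 CPM in DMSO 4 Gy and 3.36 CPM in DMSO 0 Gy. The log2 ratios were 0.66 for DZNep at 0 Gy (interval 0.49 to 0.83), 0.63 for DZNep at 4 Gy (interval 0.48 to 0.79), 0.64 for radiation in DMSO (interval 0.46 to 0.82) and 0.61 for radiation in DZNep (interval 0.47 to 0.76). With the pair HIST2H3A and HIST2H3C counted once these 4 ratios ran from 0.55 to 0.71, and without HIST2H3D as well from 0.27 to 0.53. HIST2H3D supplied 44.3% and 43.4% of the H3 counts in DZNep 4 Gy and 0 Gy, against 33.5% and 23.4% in DMSO 4 Gy and 0 Gy, with identical pairs counted once.

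H4 sums were 8.36 CPM in DZNep 4 Gy and 7.93 CPM in DZNep 0 Gy, against 8.08 CPM in DMSO 4 Gy and 6.02 CPM in DMSO 0 Gy. The H4 ratio of DZNep to DMSO at 0 Gy was 0.399 (interval 0.27 to 0.53) and became 0.604 when the pair HIST2H4A and HIST2H4B was counted once. HIST1H4I held 53.4% to 73.6% of the H4 counts with that pair counted once. Without HIST1H4I the ratio was 0.0524 with the pair counted once (interval -0.20 to 0.31) and -0.31 with it counted in full (interval -0.53 to -0.10).

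**Figure D3:**
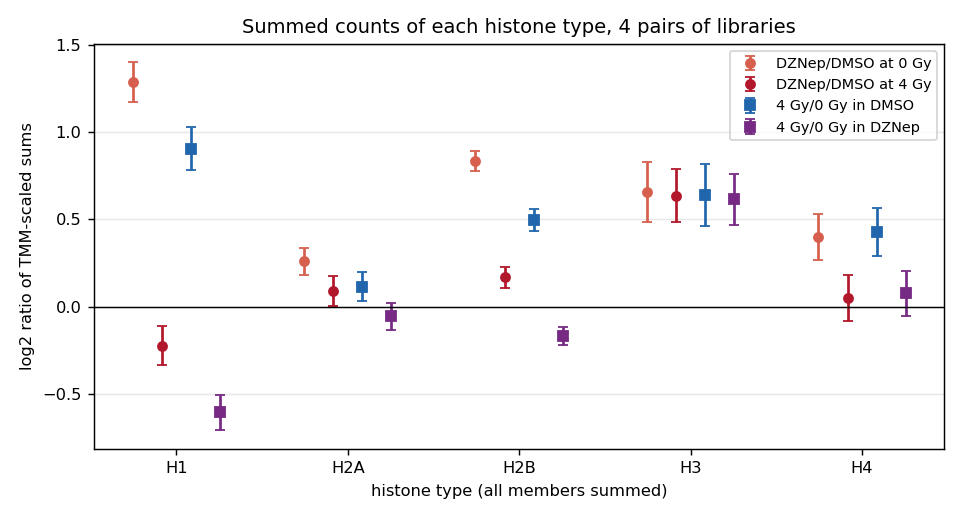
Log2 ratio of TMM-scaled counts summed over all members of each histone type, for 4 pairs of libraries; bars are exact 95% intervals for counting error only, with identical pairs counted in full. H1 ran from 1.29 for DZNep at 0 Gy down to -0.61 for radiation in DZNep, and the 4 H3 ratios lay between 0.61 and 0.66.

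The 58 members that were not tested had medians of 5.5 counts in DZNep 4 Gy and 11 in DZNep 0 Gy, against 7 in DMSO 4 Gy and 6 in DMSO 0 Gy. Together they held 9.86 CPM in DZNep 4 Gy and 9.78 in DZNep 0 Gy, against 9.31 in DMSO 4 Gy and 8.36 in DMSO 0 Gy. The log2 ratios of this sum were 0.23 for DZNep at 0 Gy (interval 0.11 to 0.34), 0.08 for DZNep at 4 Gy (interval -0.04 to 0.21), 0.16 for radiation in DMSO (interval 0.03 to 0.28) and 0.01 for radiation in DZNep (interval -0.11 to 0.13). HIST1H2AC and HIST1H2BN were the only ones at 1 CPM in any library. HIST1H2AC, an H2A gene, had 111 and 114 counts in DZNep 4 Gy and 0 Gy, against 140 and 102 counts in DMSO 4 Gy and 0 Gy. HIST1H2BN, an H2B gene, had 68 and 58 counts in DZNep 4 Gy and 0 Gy, against 115 and 39 counts in DMSO 4 Gy and 0 Gy. Its log2 ratio of 4 Gy to 0 Gy was 1.86 in DMSO (interval 1.33 to 2.42) and 0.42 in DZNep (interval -0.11 to 0.95). HIST1H3E, an H3 gene, had 47 and 36 counts at 4 Gy in DZNep and DMSO, against 13 and 7 counts at 0 Gy. Other members not tested went the other way with radiation in DMSO. HIST1H2BH, an H2B gene, had 39 counts in DMSO 4 Gy against 112 in DMSO 0 Gy (log2 ratio -1.22, interval -1.79 to -0.68). HIST1H2AM, an H2A gene, had 18 counts in DMSO 4 Gy against 58 in DMSO 0 Gy (-1.39, interval -2.24 to -0.60). HIST1H2AC, HIST1H2BN, HIST1H3E, HIST1H2BH and HIST1H2AM were singled out after their values were seen.

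Genes that make and process histone messenger RNA were set beside the clustered genes. Of 17 listed, all were tested. With DZNep, 2 of 17 rose, where 10.8% of all tested genes did: CSTF2, a cleavage and polyadenylation factor (0.52, SE 0.15, adjusted p = 0.0285, edgeR), and POU2F1, the octamer-binding factor OCT1 (0.49, SE 0.15, adjusted p = 0.0359, edgeR). None of the 17 fell. After radiation 0 passed in either direction. SLBP, the stem-loop binding protein, had 99.5 and 157 CPM in DZNep 4 Gy and 0 Gy, against 131 and 178 CPM in DMSO 4 Gy and 0 Gy. Both 4 Gy libraries lay below both 0 Gy libraries, as for 17.1% of all tested genes. The radiation log2 fold change of SLBP was -0.55 (SE 0.15, adjusted p = 0.0649, edgeR) and its DZNep one -0.29 (SE 0.15, adjusted p = 0.192, edgeR). NPAT, the coactivator of clustered histone genes at the onset of S phase, had 2.86 and 5.01 CPM in DZNep 4 Gy and 0 Gy, against 3.28 and 3.90 CPM in DMSO 4 Gy and 0 Gy, and passed neither test (adjusted p = 0.855 with DZNep and 0.3 for radiation, edgeR).

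Of 16 S phase genes, 8 fell after radiation and 0 rose, where 0.897% and 2.17% of all tested genes did. The median log2 fold change was -0.71 over the list against 0.00689 over all tested genes. The 8 that fell were RRM2, CCNA2, CCNE2, E2F1, MCM2, MCM4, MCM5 and MCM6. RRM2, a subunit of the enzyme that makes deoxynucleotides, was at -1.21 (SE 0.16, adjusted p = 0.00177, edgeR). With DZNep, CCNE2 was the only S phase gene to pass (-1.18, SE 0.35, adjusted p = 0.0303, edgeR). Of all tested genes, 12.3% were called lower with DZNep. The part of cell cycle position in the histone counts was not tested.

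Histone variant genes outside the clusters were tested in the same model. Of 12 listed and tested, 3 rose and 1 fell with DZNep (10.8% and 12.3% of all tested genes), and 0 passed after radiation. H1F0, the linker histone known from non-dividing cells, had 32.4 and 34.7 CPM in DZNep 4 Gy and 0 Gy, against 12.2 and 15.1 CPM in DMSO 4 Gy and 0 Gy (1.30, SE 0.17, adjusted p = 0.000238, edgeR). H2AFX, the H2A variant phosphorylated at DNA double strand breaks, had 36.4 and 47.3 CPM in DZNep 4 Gy and 0 Gy, against 19.7 and 32.2 CPM in DMSO 4 Gy and 0 Gy (0.72, SE 0.17, adjusted p = 0.00933, edgeR). H1FX, another linker histone, rose by 0.53 (SE 0.16, adjusted p = 0.0324, edgeR). H2AFJ, an H2A variant gene, fell by 0.705 (SE 0.23, adjusted p = 0.0463, edgeR), with 4.47 and 3.66 CPM in DZNep 4 Gy and 0 Gy, against 7.28 and 5.97 CPM in DMSO 4 Gy and 0 Gy. For H1F0 the DZNep ratio was 1.20 at 0 Gy and 1.41 at 4 Gy, whereas for HIST1H1C it was 1.43 and -0.24.

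**Figure D4:**
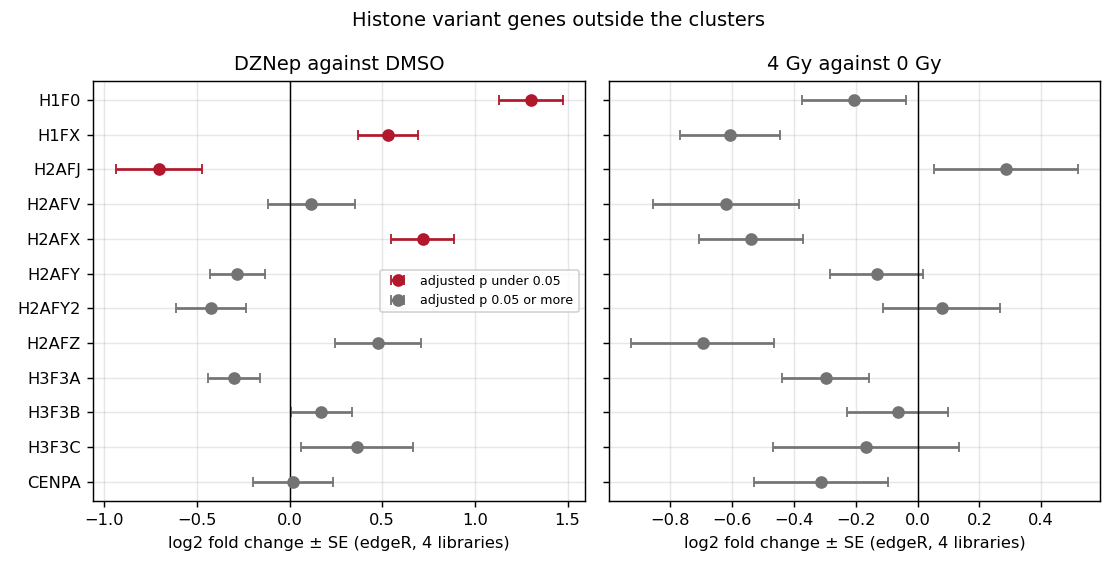
Log2 fold change with its standard error for 12 histone variant genes outside the clusters, for DZNep against DMSO (left) and for 4 Gy against 0 Gy (right), from the same edgeR model. H1F0, H1FX and H2AFX (higher) and H2AFJ (lower) passed an adjusted p of 0.05 with DZNep, and none of the 12 did after radiation.

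Promoters are shown for the 3 members called with DZNep and for HIST2H2BE, HIST1H2BD and HIST1H1C, whose radiation ratios differed by at least 2-fold between DZNep and DMSO. Each line gives the 100 bases before the RefSeq transcript start (build GRCh38.p14, 5′ to 3′; plus strand for HIST1H2BD, minus strand for the others), with matches to the octamer ATTTGCAT, to CCAAT and to TATAAA in capitals. The count files use hg19, and these coordinates belong to the RefSeq build only.
HIST1H2BK, chr6:27146859-27146958: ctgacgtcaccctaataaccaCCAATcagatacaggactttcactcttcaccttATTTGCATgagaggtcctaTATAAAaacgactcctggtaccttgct
HIST2H2BF, chr1:149812371-149812470: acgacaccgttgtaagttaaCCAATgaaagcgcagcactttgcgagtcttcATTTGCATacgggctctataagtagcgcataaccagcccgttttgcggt
HIST2H2BE, chr1:149886683-149886782: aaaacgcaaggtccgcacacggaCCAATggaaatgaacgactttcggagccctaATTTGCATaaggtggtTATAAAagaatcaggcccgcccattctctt
HIST1H2BD, chr6:26158021-26158120: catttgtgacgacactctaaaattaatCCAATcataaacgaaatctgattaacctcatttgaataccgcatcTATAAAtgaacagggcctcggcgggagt
HIST2H3D, chr1:149813694-149813793: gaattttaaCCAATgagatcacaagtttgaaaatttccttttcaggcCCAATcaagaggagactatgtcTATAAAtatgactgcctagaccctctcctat
HIST1H1C, chr6:26056471-26056570: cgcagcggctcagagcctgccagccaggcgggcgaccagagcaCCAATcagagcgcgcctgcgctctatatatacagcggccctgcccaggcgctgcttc
Of the H2B promoters shown, 3 hold the octamer, the element bound by POU2F1 in H2B genes, starting 46 bases before the start in HIST1H2BK and HIST2H2BE and 49 in HIST2H2BF. HIST1H2BD, HIST2H3D and HIST1H1C have no octamer in these windows.

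Over windows of 300 bases (250 before to 50 after the start, both strands searched), 65 of the 73 members had a RefSeq promoter. The octamer ATTTGCAT was in 14 of 18 H2B promoters, 11 of 16 H2A, 1 of 12 H3, 0 of 6 H1 and 0 of 13 H4, against 1.80% of all 27305 promoters. Among tested members it was in 3 of 14, the 3 H2B genes named. CCAAT was in 55 of the 65 (84.6%), against 35.7% of all promoters, and TATAAA in 43 of 65 (66.2%), against 12.0%. These matches describe the letters only, and the motifs did not overlap in the windows shown.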

How the data were processed

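For each of the 4 libraries the authors deposited 1 table of raw counts by gene symbol. Per the labels' protocols, RNA was extracted with Trizol and libraries were made with the Lexogen SENSE mRNA kit. TopHat, edgeR and hg19 are named in the submitters' processing notes; which versions, annotation and counter were used, and whether strand counted, is not given in the sources used here.

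Members and lists were chosen with earlier results of these data known. Genes at 1 CPM or more in at least 2 libraries (13378) were fitted with edgeR 4.0.16 (R 4.3.3), with TMM factors of 0.979 to 1.01, with drug and dose as additive terms, leaving 1 residual and 11.5 prior degrees of freedom. SE is the log2 fold change over the square root of F. Counts of genes at least 2-fold apart used a prior count of 2. Even values made up 55.9% to 58.1% of counts of 1 to 59, so tags may not be independent and counting intervals may be too narrow. Intervals came from scipy 1.17.1. The fit was tested on simulated data.

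All 73 symbols matched RefSeq by older name. Named were the 3 members of each type with the most CPM, members past the threshold and the extremes of each pair. Alternatives were DESeq2 1.42.0, RLE or plain scaling, other filters, a model with 1 factor, and other sums. 1 marker on the blood list is not reported here.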

Additional observations from a re-analysis of the deposited data

Results flagged for a closer look

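Each result here had ratios of opposite sign in 2 settings of the same contrast, with both counting intervals away from 0, among 17 results checked (5 type sums and 12 members). The differences were not tested, since each group is 1 library, and nothing was weighed as a cause. Values are differences of log2 ratios.

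For radiation, the ratio in DZNep minus that in DMSO was -1.51 for summed H1, -0.67 for summed H2B, -1.67 for HIST1H1C, -0.66 for HIST1H2BK and -1.55 for HIST2H2BE. In each of the 5, radiation went with a lower value in DZNep and a higher one in DMSO. For summed H2B the ratio in DZNep, -0.17, was 0.12 without HIST1H2BK and 0.18 as the median of tested members, so its opposite sign rests on that gene. For the drug, the ratio at 4 Gy minus that at 0 Gy was -1.51 for summed H1, -1.67 for HIST1H1C, -1.63 for HIST1H2BD and -1.55 for HIST2H2BE. In each of these 4, DZNep went with a lower value at 4 Gy and a higher one at 0 Gy. With 1 library a group, the drug difference and the radiation difference of a gene or sum are the same quantity. The drug values are therefore no separate observation from the radiation values. The H1 sum is nearly all HIST1H1C, and the H2B sum is mostly HIST1H2BK.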

How the results depend on the processing

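The 3 rises with DZNep, in HIST1H2BK, HIST2H2BF and HIST2H3D, were also called with RLE factors, plain library size and DESeq2. Without the filter on low counts 2 were called among 66 members, and with a 10 CPM filter HIST1H1C and HIST1H2BK were called, the only 2 members left. With drug as the only factor 0 members were called (4 higher and 1 lower at an unadjusted p under 0.05). The radiation counts were 0 in both directions under every alternative run, though DESeq2 gave 5 members no adjusted p. The radiation effect of HIST1H2BK, near 0 at 0.01, changed sign with plain library size (-0.0261), without the filter (-0.000997) and with dose as the only factor (-0.0573).

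Restricting the pairs to genes whose higher library reached 10 CPM left 1 member at least 2-fold higher and 0 lower for DZNep at 0 Gy, 0 higher at 4 Gy, 1 higher for radiation in DMSO and 0 higher in DZNep, because few members reach that level.

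Type sums depended on which members were summed. Without its largest member H1 gave -0.49 and 0.16 for DZNep at 0 and 4 Gy, and -1.38 and -0.73 for radiation in DMSO and DZNep. H2A gave 0.18 for DZNep at 0 Gy. H2B gave 0.68 and 0.0535 for DZNep at 0 and 4 Gy, and 0.75 and 0.12 for radiation in DMSO and DZNep. H3 gave 0.32 and 0.47 for DZNep at 0 and 4 Gy. H4 gave -0.31 and -0.35 for DZNep at 0 and 4 Gy, and 0.65 and 0.61 for radiation in DMSO and DZNep. With identical pairs also counted once, chosen after seeing the data, H3 gave 0.27, 0.35 and 0.45, and H4 gave 0.0524, -0.31 and 0.64, for DZNep at 0 and 4 Gy and radiation in DMSO, and H4 gave 0.27 for radiation in DZNep. Taking the median of the tested members gave H1 1.43 for DZNep at 0 Gy and 1.06 for radiation in DMSO. It gave H2B 1.21 and -0.32 for DZNep at 0 and 4 Gy, and 1.05 and 0.18 for radiation in DMSO and DZNep. It gave H3 0.45 for DZNep at 0 Gy and 0.85 for radiation in DZNep, and H4 -1.29 and -0.41 for DZNep at 0 and 4 Gy, and 0.66 and 1.54 for radiation in DMSO and DZNep. Leaving out pseudogenes and second copies gave H2B 0.946 for DZNep at 0 Gy, and H4 0.604 for DZNep at 0 Gy and -0.0859 for radiation in DZNep.

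No paired analysis was possible because each group is 1 library and the labels carry no replicate numbers. Depth limits the members under the filter: 55 had under 100 counts in every library.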

Other observations

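Histone chaperones, which carry histones to and from DNA, were a further list. Of 15 listed and tested, 2 rose and 4 fell with DZNep, where 10.8% and 12.3% of all tested genes did, and 0 passed after radiation. ASF1A, a chaperone of H3 and H4, had 10.7 and 15.7 CPM in DZNep 4 Gy and 0 Gy, against 6.16 and 9.72 CPM in DMSO 4 Gy and 0 Gy (log2 fold change 0.75, SE 0.19, adjusted p = 0.0135, edgeR). Its paralog ASF1B had 14.5 and 13.3 CPM in DZNep 4 Gy and 0 Gy, against 24.2 and 41.9 CPM in DMSO 4 Gy and 0 Gy (-1.20, SE 0.22, adjusted p = 0.00191, edgeR). NAP1L1, a chaperone of H2A and H2B, had 625 and 805 CPM in DZNep 4 Gy and 0 Gy, against 1475 and 1515 CPM in DMSO 4 Gy and 0 Gy (-1.08, SE 0.14). ATRX and DAXX, which act together in depositing H3.3, went opposite ways, ATRX at -1.21 (SE 0.18) and DAXX at 0.52 (SE 0.15). SUPT16H, a subunit of the FACT complex, fell by 0.81 (SE 0.17).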
